A study of Homo sapiens with 18 samples.

Results

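Accessible chromatin was described here at 5 loci that carry regulators and markers of basal and stem-like epithelial states: TP63, SOX9, KLF4, BCL6 and CD44. The members were the regions of the study's common region list that overlap 5 hg19 windows, and they numbered 131 of 132604 regions. The TP63 window (chromosome 3, 189.3 to 189.67 Mb) held 26 regions and the BCL6 window (chromosome 3, 187.39 to 187.8 Mb) 47. The CD44 window (chromosome 11, 35.11 to 35.3 Mb) held 23, the SOX9 window (chromosome 17, 70 to 70.2 Mb) 14 and the KLF4 window (chromosome 9, 110.15 to 110.35 Mb) 21. Windows were taken by position alone, so a region is described by where it lies, and its tie to the gene that names the window was not tested.

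The cells were T47D, a progesterone-receptor-positive cell line established from a human breast carcinoma. After serum starvation they were kept for 6 h or 18 h in DMSO as vehicle, in 0.1 nM R5020 or in 10 nM. R5020 (promegestone) is a synthetic progestin, and the study asked how the cells respond to different progestin levels. Omni-ATAC-seq was used, in which the Tn5 transposase inserts sequencing adapters into open DNA, so that the read count of a region follows how open it is. Each of the 6 groups had 3 libraries. The labels do not say whether the 3 are from separate cultures. The p-values therefore reflect only how far these libraries vary, and that variation may be technical.

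TP63 is a p53-family transcription factor that specifies the basal layer of stratified and mammary epithelium. SOX9 is an HMG-box factor of epithelial progenitor cells, and KLF4 is a zinc-finger factor known from the set that induces pluripotency. BCL6 is a zinc-finger transcriptional repressor first known from germinal-centre B cells. CD44 is a cell-surface receptor for hyaluronan and a widely used marker of stem-like breast cancer cells. T47D cells are luminal, and steroid receptors act on chromatin largely at sites distant from promoters, so whole windows were read rather than promoters alone.

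The upstream sequences of TP63 and CD44 are shown because their windows had the lowest and the highest ratio of summed accessibility to vehicle with 10 nM R5020 at 6 h, as described further on. They are the 250 bases before the annotated start in RefSeq (GRCh38.p14), and 4 of the 5 genes had an entry. Capitals mark the hexamer AGAACA, the half-site recognised by the progesterone and glucocorticoid receptors, searched on both strands. The TP63 stretch is chr3:189631139-189631388 on the + strand and the CD44 stretch is chr11:35138921-35139170 on the + strand.
TP63: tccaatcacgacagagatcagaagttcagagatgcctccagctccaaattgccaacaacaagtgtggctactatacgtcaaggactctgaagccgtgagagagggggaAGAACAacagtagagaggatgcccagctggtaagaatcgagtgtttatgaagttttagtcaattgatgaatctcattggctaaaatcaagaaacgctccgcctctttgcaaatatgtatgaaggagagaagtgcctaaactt
CD44: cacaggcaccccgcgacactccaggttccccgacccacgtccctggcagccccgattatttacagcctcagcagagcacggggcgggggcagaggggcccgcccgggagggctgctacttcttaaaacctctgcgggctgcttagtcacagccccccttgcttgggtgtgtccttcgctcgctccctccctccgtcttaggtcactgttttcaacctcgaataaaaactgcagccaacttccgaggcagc
The TP63 stretch held 1 AGAACA and the CD44 stretch 0, as did the upstream stretches of BCL6 and KLF4. The hexamer occurred in 4350 of 35116 upstream stretches of the same length (12.4%), and the spaced palindrome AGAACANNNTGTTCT, which contains it, in 1 (0.00285%). These coordinates are of another build than the accessible regions and were not placed among them. A match is a description of letters, and a missing match says only that these letters are not in the stretch.

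The libraries held between 8756311 and 39984217 counts in regions. The 5000 regions with the most counts took 34.1% ± 0.568 of the counts in 10 nM libraries and 39.1% ± 2.29 in vehicle libraries at 6 h (SD, n = 3), and 33.8% ± 3.15 in 10 nM and 38.2% ± 1.90 in vehicle libraries at 18 h. This share moved with dose across the whole table, and its part in the results below was not tested. By the root mean square difference of log2 CPM from the mean of the other libraries of the group, 10 nM replicate 1 at 18 h (0.998) and vehicle replicate 1 at 6 h (0.835) lay farthest, and the other 16 libraries lay at 0.427 to 0.811, so vehicle replicate 1 was close to the next. Levels are given in CPM, the count scaled to the TMM-adjusted library size and not to the width of the region, so they compare libraries and not regions. In a bulk assay, fewer cells with an open site and a less open site in each cell cannot be told apart.

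Summed over a window, accessibility rose with dose at CD44 and was lower than vehicle at TP63 after 6 h. The sums are descriptions without a test. At 6 h the CD44 window summed to 132.5 ± 6.08 CPM with 10 nM and to 69.3 ± 2.94 CPM in vehicle cells (SD, n = 3), a ratio of 1.91. At 18 h it summed to 136.4 ± 21.0 CPM with 10 nM and 66.7 ± 0.566 CPM with vehicle, a ratio of 2.05. With 0.1 nM the CD44 sum was 1.10 times vehicle at 6 h and 1.39 times vehicle at 18 h. All 3 libraries of each 10 nM group lay above all vehicle libraries of that time, and at 18 h the 0.1 nM libraries (87.8 to 95.8 CPM) lay between the vehicle libraries (66.1 to 67.2 CPM) and the 10 nM libraries (123.4 to 160.6 CPM). The TP63 window at 6 h held 94.7 to 126.0 CPM in vehicle libraries, 71.3 to 88.8 CPM with 0.1 nM and 82.6 to 85.7 CPM with 10 nM, so neither dose overlapped vehicle. At 18 h the 3 groups overlapped there, with ratios to vehicle of 0.996 for 0.1 nM and 0.915 for 10 nM. The BCL6 and SOX9 sums lay between 0.871 and 1.15 times vehicle in every treated group. The KLF4 sum was 1.22 times vehicle with 10 nM at 6 h, where its libraries (172.7 to 187.3 CPM) lay above those of vehicle (137.4 to 152.2 CPM), and 1.09 to 1.15 times vehicle in the other treated groups.

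**Figure D1:**
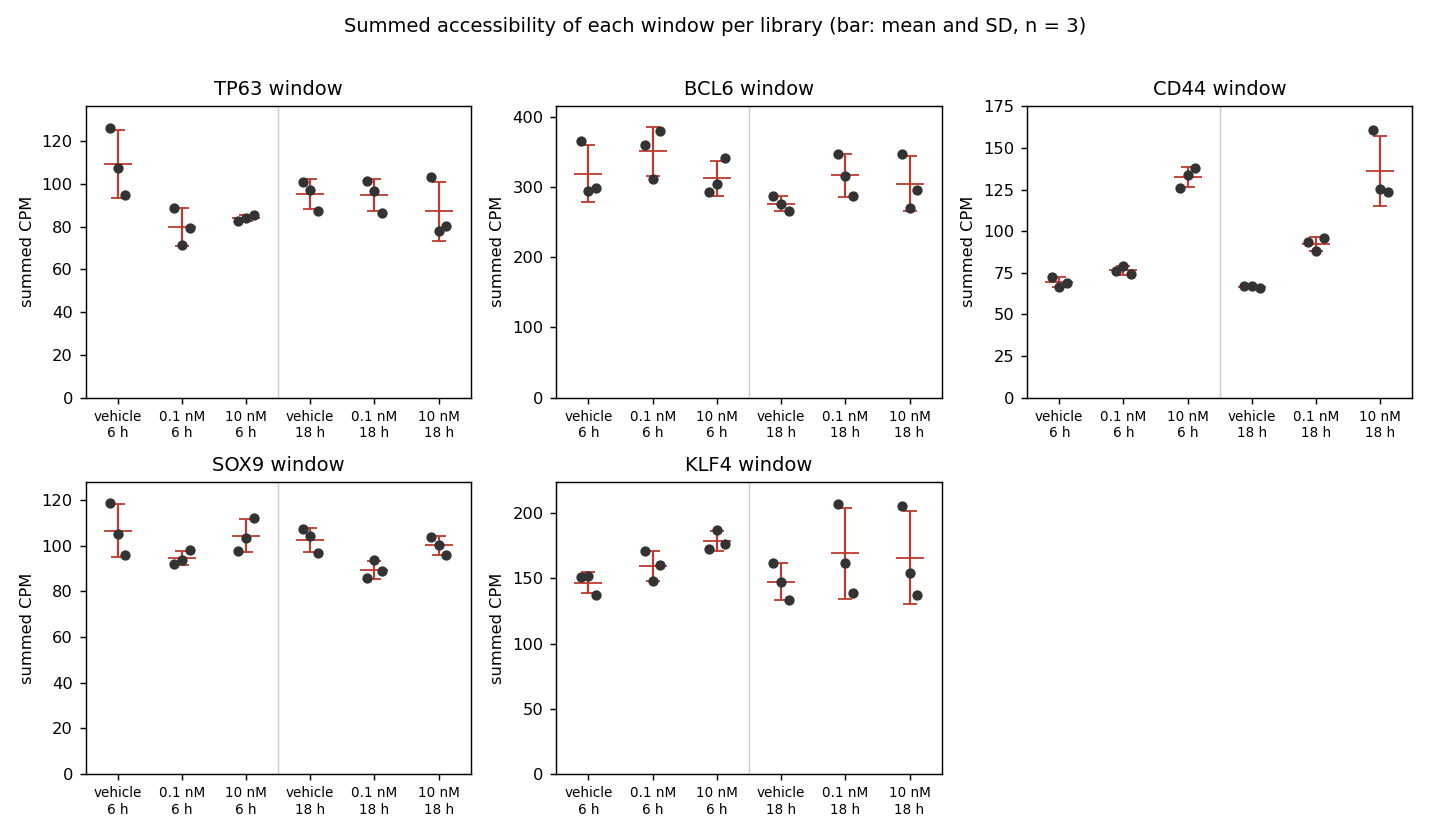
Summed CPM of each window (vertical axis) in every library, by dose and time (horizontal axis); points are libraries and bars the mean and SD of 3. The CD44 window stands at 123.4 to 160.6 CPM in the 10 nM libraries of both times, against 66.1 to 72.5 CPM in the vehicle libraries.

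Single regions changed in both directions within these sums. At 6 h of 10 nM, 34 of the 131 members (26.0%) were more accessible than with vehicle and 15 (11.5%) were less accessible, beside 16.7% and 8.42% of all 132304 regions tested. At 18 h the counts were 34 (26.0%) and 9 (6.87%), beside 12.8% and 7.56% of all regions. A region was called at an adjusted p under 0.05 in edgeR's quasi-likelihood test, adjusted over all tested regions. In a plain count of separated groups, all 3 libraries of 10 nM lay above all 3 of vehicle at 45 members and below them at 30 at 6 h, beside 24.3% and 20.4% of all regions, and at 49 and 15 at 18 h, beside 19.4% and 13.9%. The median log2 fold change over the members was 0.16 at 6 h and 0.44 at 18 h, and over all regions -0.05 at 6 h and 0.01 at 18 h. All 131 members passed the filter on low counts, 58 were called in at least 1 comparison of a dose with vehicle, beside 30.9% of all regions, and 73 in none. By window, 10 nM at 6 h raised 19 regions at BCL6 and lowered 4, and raised 6 and lowered 1 at KLF4. It raised 5 and lowered 3 at CD44, raised 2 and lowered 1 at SOX9, and raised 2 and lowered 6 at TP63. TP63 was the 1 window of 5 with more losses than gains at both times, with 3 regions raised and 5 lowered at 18 h, though 5 were raised and 4 lowered there when the fit held the share of counts in the 5000 regions. That fit called 15 members lower at 18 h, and 15096 of all regions, against 10002 without the share. Without vehicle replicate 1 the count raised at 18 h was 22, and 11250 of all regions, against 16989 with it. Without 10 nM replicate 1 at 18 h, 31 members were higher and 11 lower, while over all regions 14135 were higher and 15261 lower, against 16989 and 10002 with it.

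**Figure D2:**
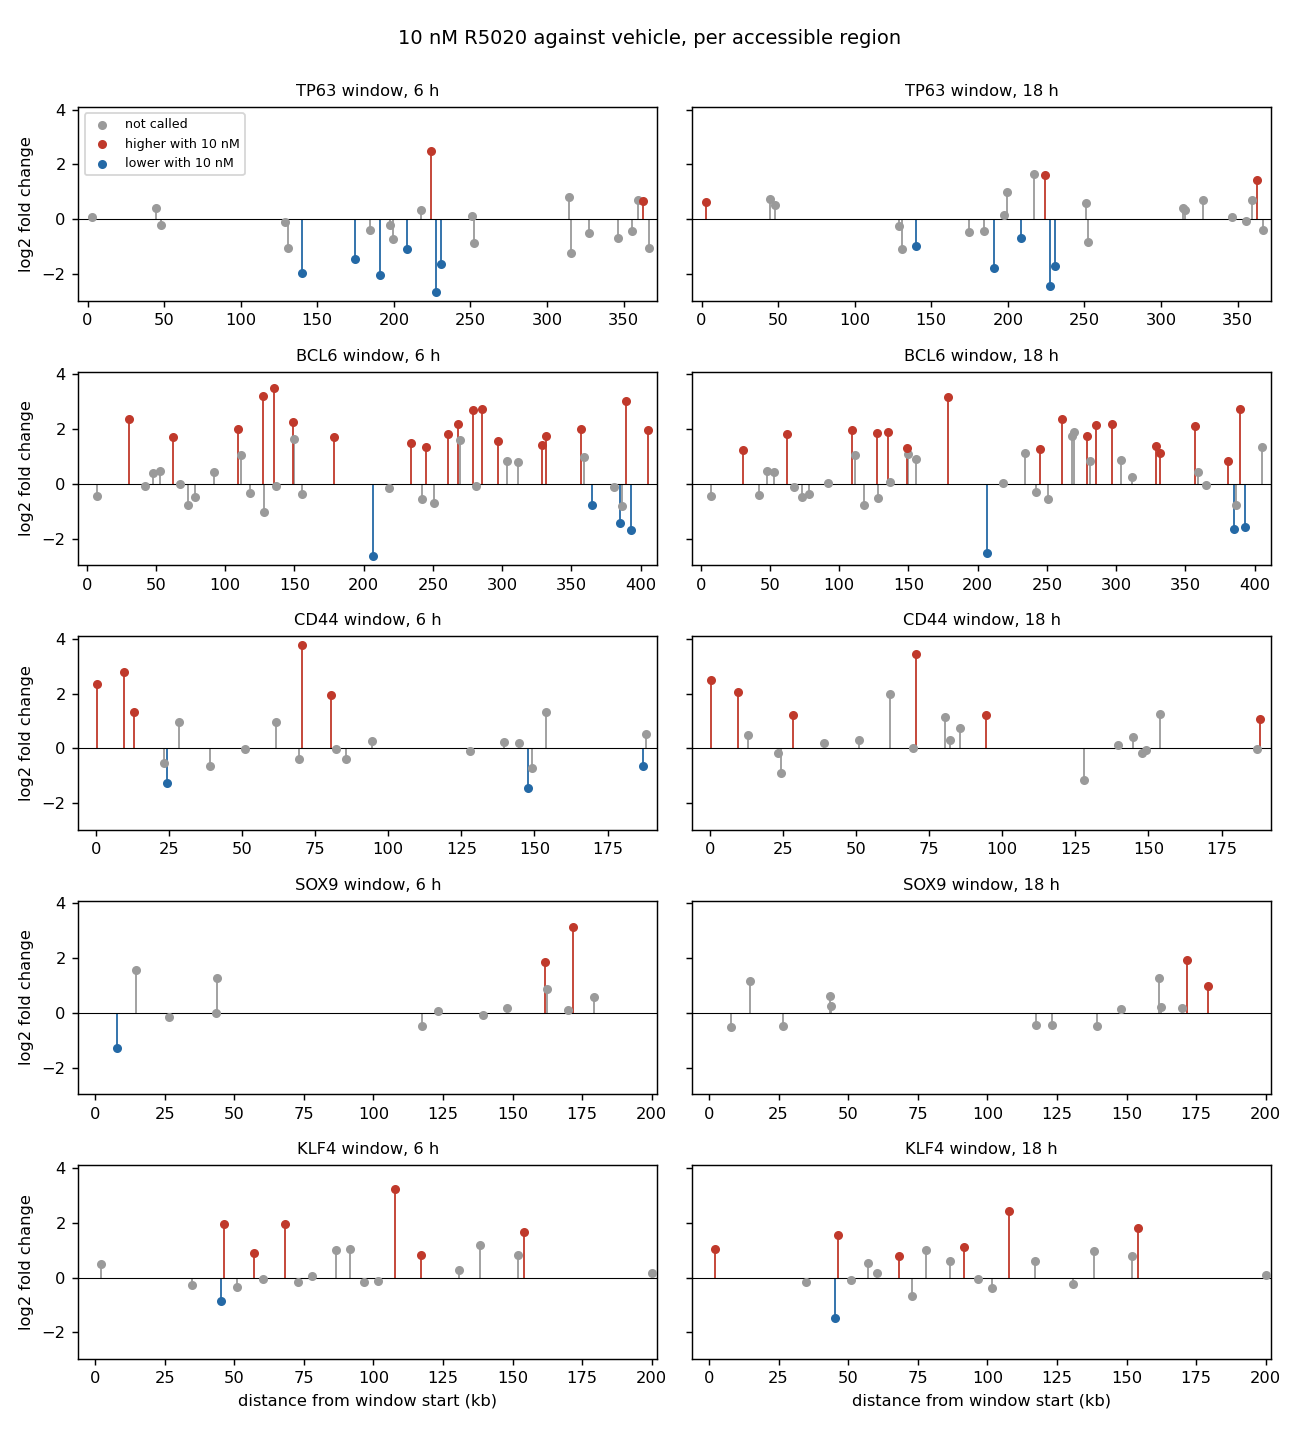
Log2 fold change of every member, 10 nM R5020 against vehicle (vertical axis), by distance from the window start in kb (horizontal axis), at 6 h on the left and 18 h on the right; red regions were called higher, blue ones lower and grey ones in neither direction. The TP63 losses lie in the middle of that window around a single gain, whereas the 19 BCL6 gains at 6 h are spread along theirs.

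TP63, the basal identity factor, lost accessibility at a block of regions. The 6 regions lowered by 10 nM at 6 h lay between chr3:189439674-189440538 and chr3:189530496-189531092, and 5 of them were also called lower at 18 h. The count of 6 was the same when any 1 library of the comparison was left out. At chr3:189439674-189440538 the 10 nM libraries held 3.14, 3.43 and 2.99 CPM and the vehicle libraries 16.2, 12.9 and 7.85 CPM at 6 h. The groups did not overlap, and the log2 fold change was -1.95 (SE 0.26, adjusted p = 1.39e-05). After 18 h its 10 nM libraries held 4.13, 4.01 and 6.53 CPM, against 8.11, 11.1 and 9.43 CPM with vehicle, a log2 fold change of -0.98 (adjusted p = 0.00933). The 0.1 nM libraries at 6 h, with 6.32 to 9.39 CPM, stood above those of 10 nM (10 nM against 0.1 nM, log2 difference -1.26, adjusted p = 0.0013).

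The largest fall of the TP63 window was at chr3:189527283-189527679. It held 0.187, 0.668 and 0.351 CPM with 10 nM at 6 h, against 2.73, 2.58 and 2.27 CPM with vehicle (log2 fold change -2.64, SE 0.62, adjusted p = 0.00316). After 18 h its 10 nM libraries held 0.210 and 1.21 CPM in replicates 1 and 3 and no count in replicate 2, where 3 counts would be 0.245 CPM, and the vehicle libraries held 2.67, 1.75 and 2.30 CPM. The fall at 18 h (log2 fold change -2.44, adjusted p = 0.0102) missed the threshold in a fit of only those groups and without the 2 libraries that lay apart (adjusted p up to 0.0565 over the alternatives). All 10 nM libraries of both times lay below all vehicle libraries at this region. The neighbouring member chr3:189530496-189531092 fell by 1.62 on the log2 scale at 6 h (adjusted p = 0.000146) and by 1.71 at 18 h (adjusted p = 0.000183), and chr3:189490750-189491426 fell by 2.03 (adjusted p = 0.00148) and by 1.78 (adjusted p = 0.0051). The most accessible TP63 region by counts, chr3:189483936-189484739, lay inside the block and was not called with 10 nM at 6 h (12.9 ± 1.15 CPM against 17.0 ± 2.81 CPM with vehicle, log2 fold change -0.39, adjusted p = 0.196).

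One TP63 region inside the block opened. At chr3:189523994-189524628, the member just before the largest fall, vehicle libraries held 3.05, 2.21 and 1.78 CPM at 6 h, 0.1 nM libraries 1.95, 1.07 and 2.02 CPM, and 10 nM libraries 13.7, 13.2 and 12.2 CPM. Only the 10 nM libraries stood apart, with a log2 fold change of 2.49 over vehicle (SE 0.33, adjusted p = 1.26e-05) and 2.92 over 0.1 nM (adjusted p = 3.23e-06). The 10 nM libraries of 18 h held 8.62, 4.82 and 4.85 CPM there, against 1.85, 1.96 and 2.24 CPM with vehicle (log2 fold change 1.63, adjusted p = 0.00115), and they exceeded 0.1 nM by 1.72 (adjusted p = 0.00198). Near the far end of the window, chr3:189662069-189662840 rose at 18 h with 10 nM (7.65, 6.79 and 6.71 CPM against 2.76, 2.62 and 2.36 CPM with vehicle, log2 fold change 1.45, adjusted p = 0.000144). Its call at 6 h (log2 fold change 0.65, adjusted p = 0.0484) was lost without any 1 of the 3 libraries of 10 nM or without vehicle replicate 1 or 2, with an adjusted p of up to 0.218 over the alternatives. At the near end, chr3:189302296-189303016 was called higher with 10 nM at 18 h (log2 fold change 0.63, adjusted p = 0.0381), a call lost without replicate 1 or 3 of 10 nM or replicate 1 or 2 of vehicle (adjusted p up to 0.145 over the alternatives). Without vehicle replicate 2 the count of TP63 regions lowered at 18 h was 3, and 7234 of all regions were lowered, against 10002 with it.

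At SOX9, the progenitor factor, 10 nM at 6 h raised 14.3% of the 14 regions and lowered 7.14%, beside 16.7% and 8.42% of all regions. The region with the most counts, chr17:70116413-70118266, was 1853 bp wide and held 62.8% of the window's CPM in vehicle cells at 6 h. It had 47.5, 48.5 and 50.3 CPM with 10 nM at 6 h, against 80.8, 61.3 and 58.9 CPM with vehicle. The libraries did not overlap, but the difference was not called (log2 fold change -0.46, adjusted p = 0.0945). The clear gain was at chr17:70171384-70171866, where vehicle libraries held 0.525, 1.33 and 1.21 CPM at 6 h, 0.1 nM libraries 1.36, 2.39 and 1.91 CPM, and 10 nM libraries 8.39, 9.93 and 10.0 CPM. The rise with 10 nM was 8.70-fold (log2 fold change 3.12, SE 0.30, adjusted p = 2.76e-07), and 10 nM exceeded 0.1 nM by 2.35 on the log2 scale (adjusted p = 4.34e-06). At 18 h this region held 9.56, 7.20 and 7.64 CPM with 10 nM, against 2.16, 1.96 and 2.36 CPM with vehicle (log2 fold change 1.92, adjusted p = 3.47e-05), and 10 nM exceeded 0.1 nM by 2.28 (adjusted p = 2.79e-05).

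Farther along the SOX9 window, chr17:70178451-70179735 held 12.3, 10.7 and 15.2 CPM with 10 nM at 18 h, against 6.21, 5.20 and 7.72 CPM with vehicle (SE of the log2 fold change 0.21, adjusted p = 0.00155), and exceeded 0.1 nM by 0.86 on the log2 scale (adjusted p = 0.00977). The region chr17:70161574-70161935 was raised by both doses at 6 h, with vehicle libraries at 0.630, 0.516 and 1.05 CPM, 0.1 nM libraries at 3.57, 2.56 and 2.64 CPM and 10 nM libraries at 2.81, 1.87 and 3.07 CPM. All treated libraries lay above all vehicle libraries. Its log2 fold change was 1.86 with 10 nM (adjusted p = 0.00544, up to 0.0972 when the fit also held each library's share of counts in the 5000 regions of highest mean) and 2.04 with 0.1 nM (adjusted p = 0.0315). The 0.1 nM call was lost without replicate 1 or 3 of that dose or replicate 1 or 2 of vehicle (adjusted p up to 0.239 over the alternatives). The 1 loss, at chr17:70007842-70008092 with 10 nM at 6 h (log2 fold change -1.27, adjusted p = 0.0195), was lost as a call without replicate 1 or 2 of 10 nM or replicate 1 or 3 of vehicle (adjusted p up to 0.12 over the alternatives). At 18 h, 10 nM raised 2 SOX9 regions (14.3%), beside 12.8% of all regions. It lowered 0 by edgeR or by DESeq2's Wald test, and 1 when the fit held that share of counts or a replicate block. By edgeR 7.56% of all regions were lowered. An unadjusted p under 0.05 in either direction was found at 4 of the 14 regions, beside 32.0% of all regions.

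KLF4, the pluripotency factor, gained accessibility with 10 nM at 6 regions at 6 h and at 6 regions at 18 h, and 4 regions were in both sets. The largest gain, at chr9:110257509-110257964, held 0.525, 0.552 and 1.21 CPM in vehicle libraries at 6 h, 0.798, 1.13 and 0.477 CPM with 0.1 nM and 5.95, 8.68 and 6.29 CPM with 10 nM. The 10 nM libraries alone stood apart, with a log2 fold change of 3.21 over vehicle (SE 0.51, adjusted p = 8.54e-05) and 3.15 over 0.1 nM (adjusted p = 8.55e-05). In the 18 h libraries 10 nM gave 7.99, 4.01 and 3.54 CPM, against 0.647, 1.03 and 1.36 CPM with vehicle (log2 fold change 2.40, adjusted p = 0.00102). The excess of 10 nM over 0.1 nM at 18 h (1.97, adjusted p = 0.00961) was lost without replicate 1 or 2 of 0.1 nM or replicate 1 of 10 nM (adjusted p up to 0.0788 over the alternatives). The region chr9:110217741-110218656 held 9.98, 11.5 and 9.95 CPM with 10 nM at 6 h, against 2.42, 2.21 and 3.64 CPM with vehicle (log2 fold change 1.94, adjusted p = 7.9e-06). At the small region chr9:110196183-110196339, 156 bp wide, 10 nM gave a log2 fold change of 1.95 at 6 h (adjusted p = 0.000642) and 1.54 at 18 h (adjusted p = 0.00354).

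A KLF4 region was raised by both doses at both times. At chr9:110303710-110304377, vehicle libraries held 2.00, 2.43 and 3.16 CPM at 6 h, 0.1 nM libraries 12.3, 10.6 and 9.06 CPM and 10 nM libraries 7.96, 9.17 and 7.05 CPM. All 6 treated libraries exceeded all vehicle libraries, and the log2 fold changes were 2.07 with 0.1 nM (SE 0.29, adjusted p = 0.000471) and 1.66 with 10 nM (SE 0.29, adjusted p = 0.000243). At 18 h they were 2.14 (adjusted p = 0.000194) and 1.80 (adjusted p = 0.00012), in the same order of doses. The difference of 10 nM from 0.1 nM was not called at 6 h (log2 difference -0.40, SE 0.26, adjusted p = 0.341) or at 18 h (-0.34, SE 0.27, adjusted p = 0.551). The loss in this window, at chr9:110194881-110195649, held 4.81, 2.62 and 2.42 CPM with 10 nM at 18 h, against 11.4, 10.2 and 7.07 CPM with vehicle (log2 fold change -1.48, adjusted p = 0.000762), and lay below 0.1 nM (log2 difference -1.53, adjusted p = 0.00129). At 6 h its call (log2 fold change -0.84, adjusted p = 0.0319) was lost without replicate 1 or 3 of 10 nM or replicate 1 or 2 of vehicle (adjusted p up to 0.635 over the alternatives). The KLF4 region with the most counts, chr9:110250711-110252694, was 1983 bp wide and held 55.8 ± 1.38 CPM at 6 h of 10 nM and 60.9 ± 8.23 CPM in vehicle cells, a difference that was not called (log2 fold change -0.12, adjusted p = 0.781).

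BCL6, the transcriptional repressor, had the most regions and the most gains, in the widest window (410 kb). It held 11.5 regions per 100 kb, beside 7 to 12.1 in the other windows. Of its 47 regions, 19 were raised and 4 lowered by 10 nM at 6 h (40.4% and 8.51%), and 17 were raised and 3 lowered at 18 h, 16 of the gains at both times. The median log2 fold change over the window was 0.85 at 6 h and 0.89 at 18 h. Leaving out any 1 library gave 16 to 18 gains at 6 h, and without vehicle replicate 1 there were 10 gains at 18 h. Over all regions that left 11250 gains at 18 h, against 16989 with all libraries. The region with the most counts, chr3:187526332-187527393, held 73.1, 76.6 and 85.3 CPM with 10 nM at 6 h, against 94.4, 78.4 and 72.0 CPM with vehicle, and the groups overlapped (log2 fold change -0.06, adjusted p = 0.862).

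The largest BCL6 gains at 6 h lay close to that region and at the far end of the window. The member just before the region with the most counts, chr3:187525115-187525400, held 0.630, 0.405 and 0.810 CPM in vehicle libraries, 0.354, 0.656 and 0.880 CPM with 0.1 nM and 4.87, 5.61 and 9.31 CPM with 10 nM. Vehicle and 0.1 nM overlapped, and 10 nM was 11.3-fold above vehicle (log2 fold change 3.49, SE 0.49, adjusted p = 2.03e-05) and 10.6-fold above 0.1 nM (adjusted p = 2.08e-05). At 18 h its 10 nM libraries held 4.55, 3.19 and 6.15 CPM, against 0.733, 0.875 and 2.18 CPM with vehicle (log2 fold change 1.89, adjusted p = 0.00344). A like gain was at chr3:187516980-187517366 (log2 fold change 3.22 at 6 h, adjusted p = 5.42e-06, and 1.84 at 18 h, adjusted p = 0.000964). The largest gain at 18 h was chr3:187568011-187568689, where 10 nM libraries held 11.3, 6.38 and 8.39 CPM and vehicle libraries 0.474, 1.29 and 1.24 CPM, with a log2 fold change of 3.15 (SE 0.40, adjusted p = 1.2e-05) and an excess over 0.1 nM of 2.15 (adjusted p = 0.000832). At 6 h that region had gained 1.73 on the log2 scale (adjusted p = 0.00299). Another gain at 18 h, at chr3:187650312-187650838, had a log2 fold change of 2.38 (adjusted p = 0.000221).

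The far end of the BCL6 window held gains and losses side by side. At chr3:187778843-187779346, vehicle libraries held 1.68, 0.921 and 1.54 CPM at 6 h, 0.1 nM libraries 5.23, 2.80 and 3.52 CPM and 10 nM libraries 10.8, 11.1 and 10.5 CPM. The 3 groups did not overlap and followed the dose. The log2 fold changes over vehicle were 1.56 for 0.1 nM (adjusted p = 0.00505) and 3.04 for 10 nM (SE 0.28, adjusted p = 2.22e-07), and 10 nM exceeded 0.1 nM by 1.47 (adjusted p = 0.000195). The same order held at 18 h, at 1.36 for 0.1 nM (adjusted p = 0.00798) and 2.72 for 10 nM (adjusted p = 7.26e-07). The 0.1 nM call at 6 h was lost without replicate 1 of 0.1 nM or replicate 2 of vehicle (adjusted p up to 0.0848 over the alternatives). The next member along, chr3:187782482-187783480, fell to 4.73, 5.74 and 4.19 CPM with 10 nM at 6 h, against 16.5, 18.0 and 12.5 CPM with vehicle (log2 fold change -1.69, SE 0.20, adjusted p = 4.07e-06), and by 1.56 on the log2 scale at 18 h (adjusted p = 1.69e-05). The call of its fall with 0.1 nM at 18 h (log2 fold change -0.90, adjusted p = 0.0159) was lost without replicate 2 or 3 of 0.1 nM or replicate 2 of vehicle (adjusted p up to 0.122 over the alternatives). On the other side of the gain, chr3:187774803-187775244 fell by 1.44 at 6 h (adjusted p = 0.00122) and by 1.66 at 18 h (adjusted p = 0.000824).

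The deepest BCL6 loss lay in the middle of the window. At chr3:187596346-187597212, vehicle libraries held 10.2, 9.47 and 8.58 CPM at 6 h, 0.1 nM libraries 4.34, 5.43 and 7.59 CPM and 10 nM libraries 1.45, 1.74 and 1.40 CPM. The groups did not overlap. With 10 nM the log2 fold change was -2.62 (SE 0.27, adjusted p = 8.3e-07), and 10 nM lay below 0.1 nM (log2 difference -1.92, adjusted p = 3.6e-05). With 10 nM at 18 h it was -2.52 (adjusted p = 3.33e-06), and 0.1 nM was not called against vehicle at 6 h (-0.70, adjusted p = 0.284) or 18 h (-0.88, adjusted p = 0.0876).

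In CPM, a pair of BCL6 regions stood highest at the low dose. They were singled out after their values were seen, because the doses separated from vehicle in opposite directions at 6 h. That pick fixed the sign of the dose difference at 6 h, so its p-values there are no support for it. The share of all regions that separate this way is not given here. At chr3:187753932-187755225, vehicle libraries held 37.8, 24.7 and 30.3 CPM at 6 h, 0.1 nM libraries 57.0, 38.1 and 72.2 CPM and 10 nM libraries 16.7, 14.3 and 23.0 CPM. All 0.1 nM libraries lay above and all 10 nM libraries below the vehicle libraries. The doses differed by -1.63 on the log2 scale (10 nM against 0.1 nM, SE 0.24, adjusted p = 6e-05). Against vehicle, 10 nM was called lower (log2 fold change -0.77, adjusted p = 0.021), a call lost without replicate 1 or 2 of 10 nM or replicate 1 of vehicle (adjusted p up to 0.151 over the alternatives), and 0.1 nM was not called (0.86, adjusted p = 0.0993). At 18 h vehicle libraries held 22.5, 22.5 and 25.8 CPM, 0.1 nM libraries 58.2, 45.9 and 44.6 CPM and 10 nM libraries 24.8, 20.3 and 23.9 CPM. There 0.1 nM was called higher (log2 fold change 1.07, adjusted p = 0.0165), a call lost without replicate 1 of 0.1 nM or replicate 1 or 2 of vehicle (adjusted p up to 0.0964 over the alternatives). The doses differed by -1.11 at 18 h (10 nM against 0.1 nM, adjusted p = 0.0041). The second, chr3:187631400-187632506, held 4.31, 6.90 and 6.29 CPM with 10 nM and 11.1, 9.37 and 12.4 CPM with 0.1 nM at 6 h. Its vehicle libraries held 7.88 to 9.03 CPM at 6 h, and neither dose was called against vehicle at 6 h or 18 h. Between the doses the log2 difference was -0.91 at 6 h (10 nM against 0.1 nM, SE 0.20, adjusted p = 0.00238). The difference was -0.94 at 18 h (adjusted p = 0.00406, and 0.0613 in a fit of only those groups).

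**Figure D3:**
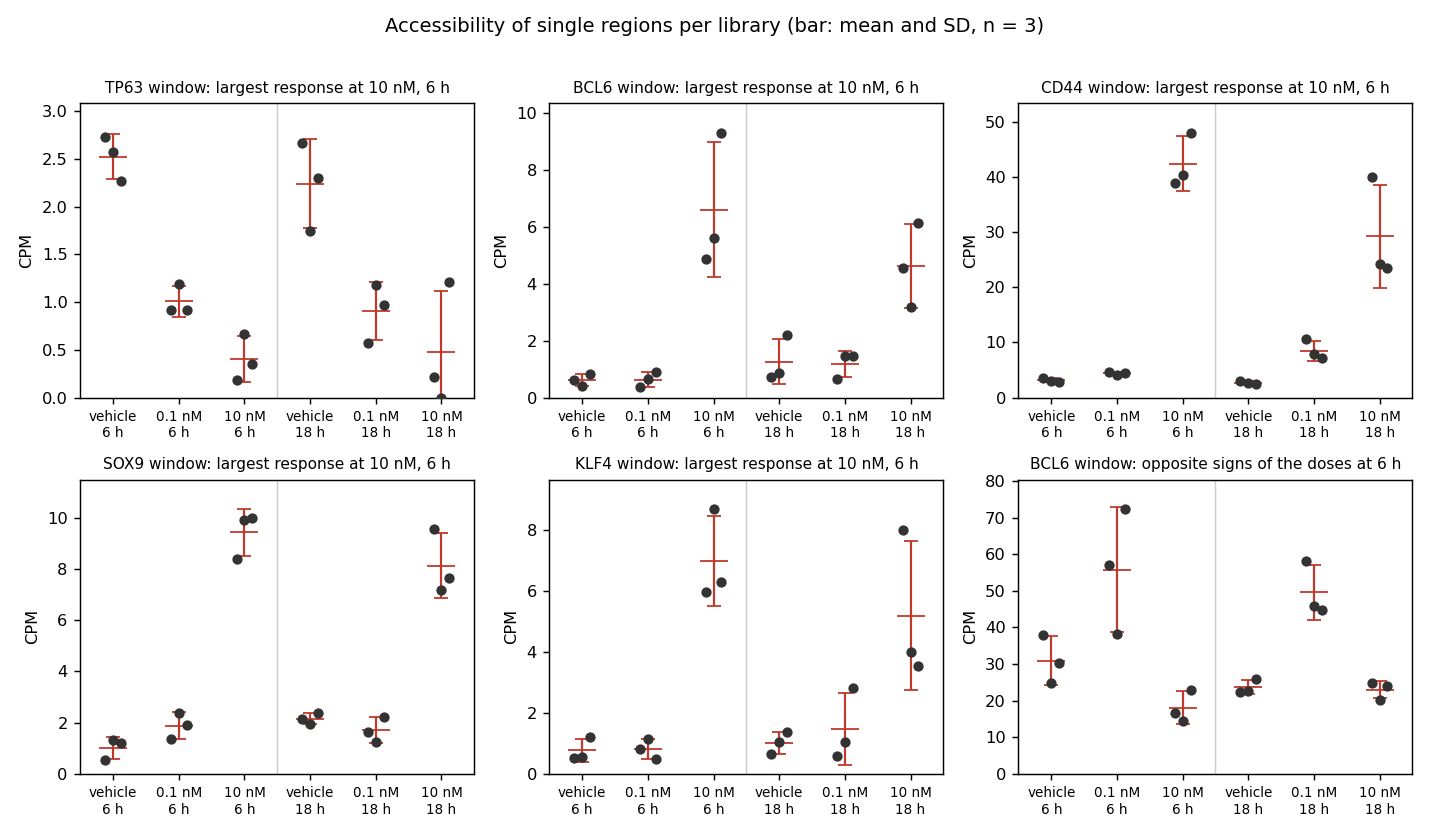
CPM per library (vertical axis) of the region with the largest response to 10 nM at 6 h in each window, and of the BCL6 region where the doses went opposite ways at 6 h, by dose and time (horizontal axis); points are libraries and bars the mean and SD of 3. The CD44 region stands at 38.9 to 48.0 CPM in the 10 nM libraries at 6 h against 2.83 to 3.57 CPM with vehicle, and the last panel shows the 0.1 nM libraries highest at both times.

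CD44, the hyaluronan receptor, carried the largest rise of all members. At chr11:35180030-35180872, vehicle libraries held 3.57, 2.98 and 2.83 CPM at 6 h, 0.1 nM libraries 4.55, 4.12 and 4.44 CPM and 10 nM libraries 38.9, 40.3 and 48.0 CPM. The 10 nM libraries stood 13.6-fold above vehicle (log2 fold change 3.77, SE 0.24, adjusted p = 1.18e-08) and 9.68-fold above 0.1 nM (adjusted p = 7.26e-08). With 0.1 nM at 6 h the region was not called (log2 fold change 0.49, adjusted p = 0.553). At 18 h vehicle libraries held 3.06, 2.68 and 2.42 CPM, 0.1 nM libraries 10.5, 7.88 and 7.10 CPM and 10 nM libraries 40.0, 24.1 and 23.5 CPM. The 3 groups were apart and followed the dose, with log2 fold changes of 1.65 for 0.1 nM (adjusted p = 0.000302) and 3.43 for 10 nM (adjusted p = 2.62e-08), and 10 nM exceeded 0.1 nM by 1.78 (adjusted p = 2.46e-05). The gap between the doses was 1.50 smaller at 18 h than at 6 h on the log2 scale (change -1.50, SE 0.30), which was not called (adjusted p = 0.123). It was called in 6 alternatives with an adjusted p between 0.000261 and 0.0252, among them DESeq2's Wald test (adjusted p = 0.0101), the fit with a replicate block (adjusted p = 0.0146) and the fit without replicate 1 of 10 nM at 18 h (adjusted p = 0.0235).

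A second CD44 region answered both doses from 6 h on. At chr11:35110006-35110858, at the edge of the window, vehicle libraries held 2.42, 4.53 and 5.67 CPM at 6 h, 0.1 nM libraries 15.9, 11.6 and 13.7 CPM and 10 nM libraries 20.1, 23.4 and 21.0 CPM. The groups did not overlap, and the log2 fold changes were 1.69 for 0.1 nM (SE 0.27, adjusted p = 0.00152) and 2.33 for 10 nM (SE 0.27, adjusted p = 2.69e-06). At 18 h they were 1.99 (adjusted p = 0.000186) and 2.50 (adjusted p = 1.68e-06), in the same order of doses. The difference of 10 nM from 0.1 nM was not called at 6 h (log2 difference 0.64, adjusted p = 0.077) or 18 h (0.51, adjusted p = 0.243). Another gain, at chr11:35119188-35119748, was seen with 10 nM (10.5, 10.6 and 13.7 CPM against 1.37, 1.22 and 2.59 CPM with vehicle at 6 h, log2 fold change 2.78, adjusted p = 1.53e-06). At 18 h it was 2.06 (adjusted p = 4.31e-05). These 3 gains together exceeded vehicle by 66.4 CPM at 6 h, and the whole window by 63.2 CPM, so the other 20 regions summed to 57.0 CPM with 10 nM and 60.2 CPM with vehicle. These gains made up 76.6% of the window's difference at 18 h.

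In the CD44 window, 10 nM at 6 h raised 21.7% of the 23 regions and lowered 13%, beside 16.7% and 8.42% of all regions. The other 15 were not called. The window's region with the most counts, chr11:35160232-35161702, held 21.2, 18.7 and 17.8 CPM with 10 nM at 6 h, against 24.1, 19.6 and 14.8 CPM with vehicle, and the groups overlapped (log2 fold change -0.02, adjusted p = 0.962). Of the 3 losses at 6 h, chr11:35134012-35134590 held 1.97, 1.87 and 2.05 CPM with 10 nM, against 5.46, 4.35 and 4.21 CPM with vehicle (log2 fold change -1.24, adjusted p = 0.00783). The loss at chr11:35257566-35257774 (log2 fold change -1.42, adjusted p = 0.00688) missed the threshold without 10 nM replicate 3 (adjusted p = 0.058), and there 10 nM also lay below 0.1 nM (log2 difference -1.49, adjusted p = 0.00484). The loss at chr11:35296610-35297758 (log2 fold change -0.63, adjusted p = 0.0304) was lost as a call without any 1 of the 3 libraries of 10 nM or without vehicle replicate 1 (adjusted p up to 0.405 over the alternatives). Without 10 nM replicate 3 the window had 1 loss, and 7011 of all regions were called lower, against 11143 with it. At 18 h 10 nM raised 6 CD44 regions (26.1%) and lowered 0, beside 12.8% and 7.56% of all regions. There were 4 lower when the fit held the share of counts in the 5000 regions, which called 15096 of all regions lower, against 10002 without it. DESeq2's Wald test or a replicate block gave 1 lower. An unadjusted p under 0.05 in either direction was found at 11 of the 23 regions, beside 32.0% of all regions.

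The low dose moved fewer members than 10 nM did. At 6 h, 0.1 nM raised 4 members (3.05%) and lowered 0, beside 0.949% and 0.241% of all regions. The 4 were the SOX9, KLF4, BCL6 and CD44 regions described above, and the comparison with 10 nM shares their vehicle libraries. In the TP63 window edgeR called 0 regions, DESeq2's Wald test 1 lower, and 6 of the 26 regions had an unadjusted p under 0.05. Over the 5 windows DESeq2 called 2 regions lower, beside 671 of all regions. An unadjusted p under 0.05 in either direction was found at 20 of the 131 members, beside 8.83% of all regions. The 4 gains fell to 2 without replicate 1 of 0.1 nM or replicate 2 of vehicle, and those of all regions from 1256 to 632 and 557. At 18 h, 0.1 nM raised 10 members (7.63%) and lowered 1 (0.763%), beside 1.74% and 0.698% of all regions. The libraries of 0.1 nM lay wholly above those of vehicle at 12 members and below them at 13 at 6 h, beside 6.91% and 6.67% of all regions, and at 26 and 9 at 18 h, beside 8.83% and 7.56%. The gains were 3 at CD44, 3 at BCL6, 2 at TP63 and 2 at KLF4, among them TP63 chr3:189662069-189662840 (log2 fold change 1.13, adjusted p = 0.0103). At SOX9 neither edgeR nor DESeq2 called a region, and 2 of its 14 regions had an unadjusted p under 0.05, beside 11.6% of all regions. Without replicate 1 of 0.1 nM or replicate 2 of vehicle 3 gains were called, and without replicate 1 of vehicle 5. Over all regions these fits called 1020, 1113 and 957 gains, against 2307 with all libraries.

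Among these gains at 18 h, BCL6 chr3:187686742-187687345 held 5.33, 4.63 and 4.28 CPM with 0.1 nM, against 1.94, 1.65 and 1.83 CPM with vehicle (log2 fold change 1.40, adjusted p = 0.0138). The call was lost without replicate 1 of 0.1 nM or replicate 1 or 2 of vehicle (adjusted p up to 0.0782 over the alternatives). At TP63 chr3:189646038-189646391 the 0.1 nM libraries held 4.69, 3.66 and 2.14 CPM, against 1.81, 1.39 and 0.589 CPM with vehicle (log2 fold change 1.47, adjusted p = 0.0495), and 10 nM lay below 0.1 nM (log2 difference -1.37, adjusted p = 0.028). Neither call was stable. The call against vehicle was lost without replicate 1 or 2 of 0.1 nM or any 1 of the vehicle libraries (adjusted p up to 0.245 over the alternatives), and the difference between the doses without replicate 1 or 2 of 0.1 nM or any 1 library of 10 nM (adjusted p up to 0.185 over the alternatives).

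Compared directly, 10 nM was above 0.1 nM at 30 members (22.9%) and below it at 10 (7.63%) at 6 h, beside 15.1% and 5.25% of all regions. BCL6 held 18 of the regions where 10 nM was higher, CD44 5, KLF4 4, TP63 2 and SOX9 1. The regions where it was lower were 4 each at TP63 and BCL6 and 2 at CD44. Without replicate 3 of 0.1 nM, replicate 1 of 10 nM or replicate 2 of 10 nM the count of lower members was 6. Over all regions it was 3760, 3847 and 4266, against 6947 with all libraries. At 18 h fewer members were called, 15 (11.5%) with 10 nM higher and 8 (6.11%) with 10 nM lower, beside 6.67% and 4.22% of all regions. Without replicate 1 of 0.1 nM, replicate 1 of 10 nM or replicate 2 of 10 nM, 5 were lower. Over all regions 2953, 4992 and 4300 were lower, against 5586 with all libraries.

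Most calls made with 10 nM at 6 h recurred with the same sign at 18 h, and the times share no library. They are not fully independent, since 1 fit gave both. Vehicle libraries of the same replicate number also deviated together at 18 h and 6 h (correlations 0.317, 0.121 and 0.446). Of the 34 members raised at 6 h, 26 (76.5%) were among the 34 raised at 18 h (76.5%). Of the 15 lowered at 6 h, 9 (60.0%) were lowered at 18 h, where they were all 9 of the members called (100%). Over all tested regions, 60.8% of those raised at 6 h were among those raised at 18 h, of which they made up 79.2%, and the shares were 58.3% and 64.9% for those lowered. Of the 131 members 0 were called in opposite directions, 111 of 131 (84.7%) had the same sign of log2 fold change at both times, beside 80.8% of all regions, and the fold changes correlated with r = 0.874 over the members and 0.826 over all regions. The correlation is a description, and neighbouring regions share their libraries. A test of the change in response between the times called 0 members for 10 nM and 0 for 0.1 nM by edgeR and by DESeq2. For the change of the dose difference edgeR called 0 and DESeq2 1. Unadjusted p was under 0.05 at 16, 11 and 10 members, in that order, beside 5.57%, 2.53% and 5.75% of all regions. Of all regions, 0.00151%, 0% and 0.0113% were called. Between the vehicle groups, 18 h against 6 h, edgeR and DESeq2 called 0 members and 0% of all regions were called by edgeR. An unadjusted p under 0.05 was found there at 8 members, beside 2.87% of all regions.

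**Figure D4:**
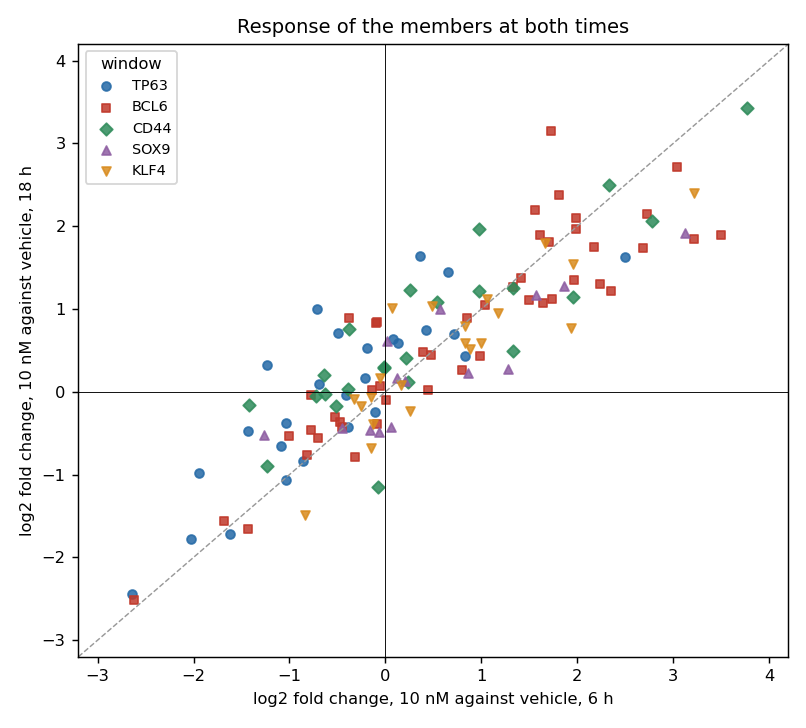
Log2 fold change of each of the 131 members with 10 nM against vehicle at 18 h (vertical axis) and at 6 h (horizontal axis), marked by window, with the line of equal response dashed. The points follow the line (r = 0.874), with the CD44 region of the largest rise at the upper right and a TP63 and a BCL6 loss at the lower left.

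Gained and lost members differed in starting level and in width, as did regions over the whole table. The vehicle libraries of the other time, which the comparison did not use, gave the starting level. Members raised by 10 nM at 6 h had a median of 1.29 CPM in vehicle cells at 18 h and a median width of 466.5 bp. Members lowered had 5.21 CPM and 676 bp, and members in neither group 1.54 CPM and 355.5 bp. Over all regions the medians were 1.19 CPM and 389 bp for raised, 5.18 CPM and 601 bp for lowered and 2.23 CPM and 362 bp for the rest, which is the same order. The regions with the most counts in each of the 5 windows were called in no comparison of 10 nM with vehicle.

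The regions elsewhere in the genome most like the leading responders were found by Pearson correlation of log2 CPM over the 18 libraries among 70238 candidates outside the windows. Closest to the CD44 region chr11:35180030-35180872 were chr1:28640335-28640975 and chr7:139748919-139749715 (r = 0.984 for both), with log2 fold changes of 1.99 and 2.74 for 10 nM at 6 h. Closest to the SOX9 region chr17:70171384-70171866 were chr17:20368064-20368557 (r = 0.984) and chr20:25353416-25353910 (r = 0.983). For the BCL6 gain chr3:187525115-187525400 the closest was chr12:97163995-97164572 (r = 0.981), and for the KLF4 gain chr9:110257509-110257964 it was chr2:28825713-28826446 (r = 0.982). The TP63 loss chr3:189527283-189527679 was closest to chr12:92057102-92057820 (r = 0.953), which fell by 1.53 on the log2 scale. The points of each correlation are the same 18 libraries, and the highest values of many candidates are a description.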

How the data were processed

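Omni-ATAC-seq of T47D cells gave 18 libraries, 3 for each of 6 groups, and groups follow the sample labels. Per the submitters' processing notes the authors used BWA, MACS2 and hg19; versions, read filters, any Tn5 shift and the merging of regions are not given in the sources used. The deposited values are raw counts of reads per region for 1 list of 132604 regions. Whether a region's start counts from 0 or 1 is not stated. No hg19 annotation was used, so regions are not assigned to promoters, exons or introns, and other pathway genes and cell-type markers were not analysed here.

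Counts were scaled by TMM and tested with edgeR 4.0.16 (R 4.3.3), in a quasi-likelihood fit of all 18 libraries on the 6 group means (12 residual degrees of freedom). Regions under filterByExpr's minimum count of 10 and minimum total of 15 were left out (300). P-values were adjusted by Benjamini-Hochberg over the 132304 tested regions of each comparison, with a threshold of 0.05. The standard error is the log2 fold change divided by the square root of F. Likeness used log2 CPM with a prior count of 2.

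The named regions were, in each window, up to 3 of the largest called rises and falls with 10 nM at each time, 1 of each in the other dose comparisons, and the region with the highest mean CPM. The members, windows and this rule were chosen with earlier results of these data known. Alternatives were DESeq2 1.42.0 (its size factors in edgeR, or its Wald test), no TMM, no filter, only the groups compared, a replicate block, as a covariate each library's percentage of counts in the 5000 regions with the highest mean CPM, windows widened by 50 kb, leaving out each library, and, chosen after seeing the data, leaving out 2 libraries that lay apart (10 nM replicate 1 at 18 h and vehicle replicate 1 at 6 h).

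The fit was tested on simulated data for 10 nM against vehicle at 6 h (128377 regions). It called 92 of 100 regions changed 4-fold, 13 of 100 changed 2-fold and 3 of 128177 unchanged ones. In the measured libraries the same comparison called far more regions, 22119 higher and 11143 lower. How often the fit calls regions when that many change, in both directions, was not tested. Summed over regions, pairs of libraries of 1 group differed by 3.28 to 27.8 times the chi-square per degree of freedom that counting alone gives. This measure grows with depth, so it does not show that counting error is small at regions with few counts. Libraries with the same replicate number deviated together (correlation over 0.1 in all 3 pairs) for 10 nM with 0.1 nM at 18 h (0.599, 0.192 and 0.454) and for vehicle at 18 h with 6 h (0.317, 0.121 and 0.446), which is a hint from the data and is not in the labels.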

Additional observations from a re-analysis of the deposited data

Results flagged for a closer look

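At BCL6 chr3:187753932-187755225 the doses went opposite ways from vehicle at 6 h, with every 10 nM library below and every 0.1 nM library above the vehicle libraries. Both comparisons share those vehicle libraries, and the direct difference of 10 nM from 0.1 nM was -1.63 on the log2 scale (edgeR adjusted p = 6e-05). At BCL6 chr3:187631400-187632506 neither dose was called against vehicle at 6 h or 18 h. The libraries there separated the same way at 6 h, with a log2 difference of -0.91 (10 nM against 0.1 nM, edgeR adjusted p = 0.00238). Both regions were picked for this separation, which fixed the sign of the 6 h dose difference, so these p-values are no support for it. The pick did not use the 18 h libraries. There the differences were -1.11 (edgeR adjusted p = 0.0041) and -0.94 (adjusted p = 0.00406, up to 0.0613 over the alternatives).

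At TP63 chr3:189499247-189499605 the 10 nM libraries lay on opposite sides of vehicle at 18 h and 6 h, and the log2 change of the response was 1.71 (edgeR adjusted p = 0.494). At TP63 chr3:189627508-189627656 the 0.1 nM libraries did so, with a log2 change of 2.48 (adjusted p = 1). Neither change passed the test.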

How the results depend on the processing

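Of 78 named results, 58 were called in every alternative, 18 lost the call in at least 1, and 1 was reversed. That was BCL6 chr3:187753932-187755225 with 10 nM at 18 h, not called, whose log2 fold change was 0.11 without TMM and 0.15 with the covariate, and between -0.098 and 0.062 with 1 library left out. Without TMM the median of all regions moved by 0.16 for 10 nM at 18 h, to 0.17. Among counts of called members, 0.1 nM at 6 h gave 8 higher with the covariate and 2 to 5 with 1 library left out, and 2 lower by DESeq2's Wald test, 1 with the replicate block, 2 with the covariate and 0 to 1 with 1 library left out. Over all regions these counts were 2881 and 557 to 1233 higher, and 671, 747, 1065 and 70 to 464 lower. The fit used above called 1256 higher and 319 lower. For 0.1 nM at 18 h, 3 to 9 were higher with 1 library left out, and 2 were lower by DESeq2, with the block or with the covariate, and 0 to 1 with 1 left out. Over all regions these counts were 957 to 2370 higher, and 1204, 1732, 1689 and 335 to 682 lower, against 2307 and 923 above. For 10 nM at 18 h, 15 were lower with the covariate, and 22 to 34 higher with 1 left out. Over all regions these counts were 15096 lower and 11250 to 16383 higher, against 10002 and 16989 above. For 10 nM against 0.1 nM, 6 to 9 were lower at 6 h with 1 left out, and 3760 to 6319 of all regions, against 6947 above. At 18 h 9 were higher and 3 lower with only the groups compared, 5 lower without the 2 libraries that lay apart, and 5 to 8 lower with 1 left out. Over all regions the 18 h counts were 4505 higher, and 1677, 5381 and 2953 to 6007 lower, against 8822 and 5586 above. The dose difference changed between times, lower, at 1 member without TMM, by DESeq2, with the block or without those 2 libraries, at 2 with the covariate, and at 0 to 1 with 1 left out. Over all regions these counts were 21, 367, 194, 118, 603 and 1 to 75, in that order, against 15 above. Window sums relative to vehicle moved beyond 1 SD for CD44 with 10 nM at 6 h (1.70 widened, 2.08 without TMM), CD44 with 0.1 nM at 18 h (1.31 widened, 1.46 without TMM), SOX9 with 10 nM at 18 h (1.08 widened, 1.09 without TMM) and KLF4 with 10 nM at 6 h (1.33 without TMM). The cause of these changes was not tested.

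With the replicate block, 10 nM gave 39 higher and 20 lower at 6 h and 40 and 13 at 18 h, 0.1 nM gave 6 and 1 at 6 h and 13 and 2 at 18 h, and 10 nM against 0.1 nM gave 38 and 12 at 6 h and 21 and 8 at 18 h. Over all regions the block gave, in that order, 25731 and 15323, 20659 and 15588, 1925 and 747, 3640 and 1732, 23545 and 9647, and 11717 and 7933. Without the block these counts were 22119 and 11143, 16989 and 10002, 1256 and 319, 2307 and 923, 19984 and 6947, and 8822 and 5586. Depth limits the weakest regions, where a few counts make up a library's value.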
